A study of Mus musculus with 3 samples.

Results

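The 32 genes described here encode the antioxidant and NRF2-type defence of the cell. They form a list of gene symbols defined by function and drawn up with earlier results of these data known, and were found on the arrays by matching the RefSeq accession of each probe to a symbol. All 32 were present, on 43 of 39429 probes, and they are 32 of the 20886 genes that could be named. The series holds 3 Agilent one-colour arrays of cultured C57BL/6 mouse cells, which the labels call endothelial and derive from the cavernous tissue of the penis. The first array held cells given 30 mmol glucose together with DKK2 protein, the second cells given 30 mmol glucose alone, and the third cells given 5 mmol glucose, each for 48 h. All cells shared a medium with serum, heparin and vascular endothelial growth factor A. DKK2 (Dickkopf 2) is a secreted protein that modulates the Wnt pathway, and its dose is not stated in the sources used here. Each array carried RNA pooled from 3 samples. A condition is thus 1 array with no replicate check, and no test between conditions can be made.

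NRF2, the protein of Nfe2l2, is a transcription factor that KEAP1 holds in the cytoplasm and marks for degradation. Oxidants and electrophiles modify KEAP1, after which NRF2 enters the nucleus and binds antioxidant response elements of genes for glutathione supply, quinone reduction, haem breakdown and the thioredoxin system. Beside these inducible genes stand the superoxide dismutases, catalase, glutathione peroxidases and peroxiredoxins, which remove superoxide and peroxides, and the metallothioneins, which bind metals. In endothelium, superoxide consumes nitric oxide, the mediator of penile erection, and high glucose is a known source of superoxide.

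The values below are scaled signals, the processed signal of a probe in multiples of the 75th percentile of its own array. That percentile was a signal of 2417 on the DKK2 array, 2380 in high glucose and 1201 in normal glucose, which makes the third array the dimmest. Every one of the 32 genes was well above background on all arrays. A gene is read on its brightest probe, and a difference is given in log2 units, where 1 is 2-fold. The scanner's error model gave a difference between 2 arrays a median technical SD of 0.20, and 0.20 to 0.22 for every defence gene. A single difference therefore carries a technical 95% interval of about 0.40 on either side. That interval works as a nearly fixed cutoff and was not measured gene by gene. Replicate spots of Prdx3 and Gsta4 had log2 SDs of 0.03 to 0.07 within an array. The interval leaves out variation between cultures. The words higher and lower are kept for differences of at least 2-fold, and smaller ones are given as values. Levels of different probes are not compared. Markers were looked up to check the labelled cell type, but since 83.9%, 84.7% and 76.6% of all probes were well above background on the 3 arrays, detection says little about cell identity. Of 15 endothelial markers, 14, 15 and 13 passed with DKK2, in high glucose and in normal glucose, the exceptions being Erg with DKK2 and Erg and Emcn in normal glucose. In normal glucose Kdr and Eng passed at signals of 3648 and 2456. Tie1, Cldn5 and Icam2 passed at 9.8, 29.8 and 39.6, where the lowest signal well above background was 7.57. All 10 fibroblast, all 8 smooth muscle and pericyte and all 10 adipocyte markers passed on every array too. Of 14 macrophage markers with a probe, 13 passed on every array, and of 9 skeletal muscle markers 8, 9 and 8 passed. In such pooled RNA, fewer cells of a type and less RNA per cell cannot be told apart.

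**Figure D1:**
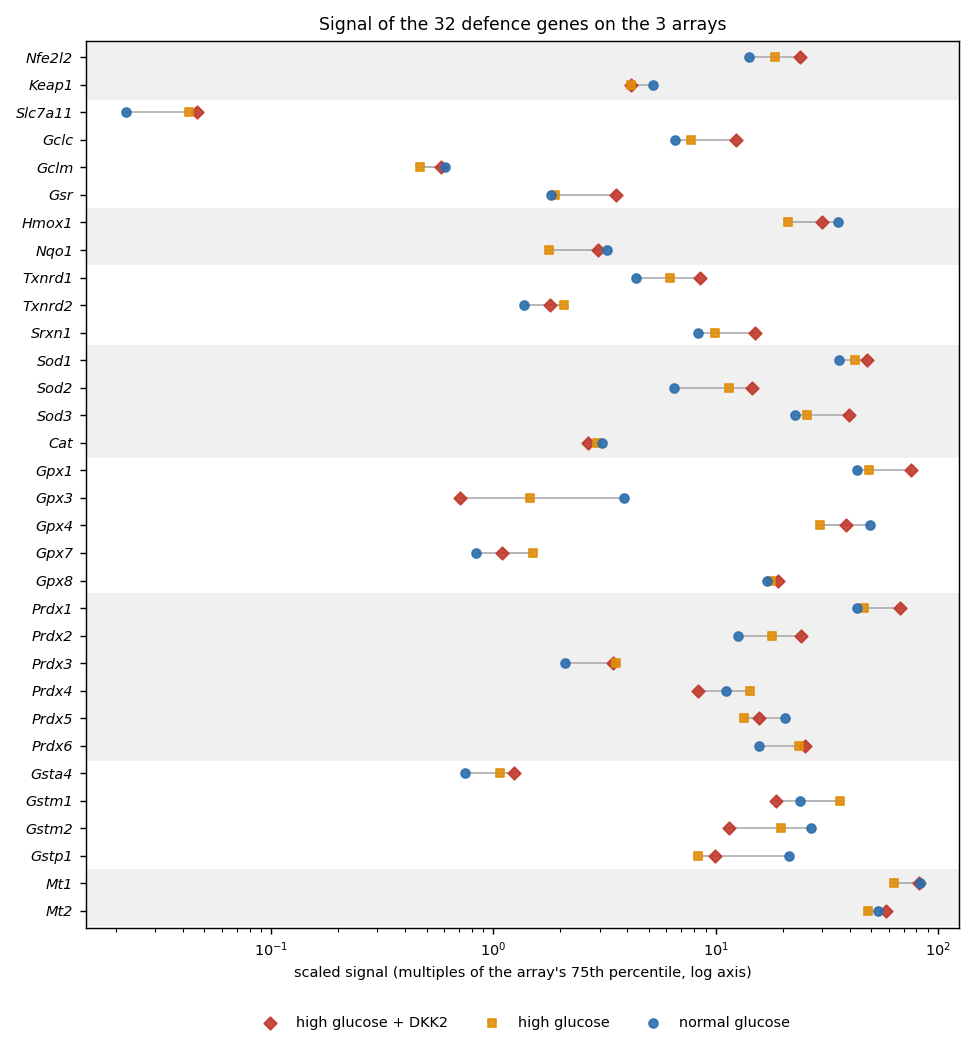
Scaled signal of the 32 defence genes (rows, grouped by role in shaded bands) on the DKK2 array (diamonds), the high glucose array (squares) and the normal glucose array (circles), on a log axis. Gpx3 shows the widest spacing, at 0.704, 1.46 and 3.85.

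The first comparison asked what high glucose did to the defence genes. Most differences were small: 0 of 32 genes were higher in high glucose and 2 were lower, the secreted peroxidase gene Gpx3 at -1.40 and the glutathione transferase gene Gstp1 at -1.37. The background over 16766 genes was 2.67% higher and 5.73% lower. The share of lower defence genes, 6.25%, is close to that background. The median difference of the 32 genes was 0.18, against 0.09 over all genes, and 20 of 32 (62.5%) were above 0, beside 56.4% of all genes. At 1.5-fold, 7 genes lay above (14% of all genes did) and 6 below (13.6%). Technical intervals lay wholly above 0 for 10 genes and wholly below for 7, beside 24.3% and 19.5% of all genes, and held 0 for the other 15.

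The second comparison asked what DKK2 changed in cells kept in high glucose. Again 0 of 32 genes were higher, beside 5.08% of all 17825 measured genes, and Gpx3 alone was lower, at -1.05, beside 4.85%. The differences were small and more often upward. With DKK2, 23 of 32 genes read above their high glucose value (57.6% of all genes did), and the median difference was 0.27, against 0.08 over all genes. With quantile normalization the median was 0.17, against 0.02 over all genes, and 22 of 32 lay above 0. All genes include many dim ones, and a background matched on brightness was not drawn. Past 1.5-fold upward were Gsr at 0.91, Nqo1 at 0.72, Gclc at 0.68, Gpx1 at 0.63, Sod3 at 0.62 and Srxn1 at 0.60. These 6 of 32 genes stand beside 13.1% of all genes. Past 1.5-fold downward were Gpx3, Gstm1 at -0.96, Gstm2 at -0.79 and Prdx4 at -0.77, or 4 of 32 beside 11.3% of all genes. Technical intervals lay wholly above 0 for 10 genes and wholly below for 5, beside 20.0% and 16.3% of all genes.

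The third comparison spanned both treatments, from DKK2 with high glucose to the normal glucose array. Here 2 of 32 genes were higher, the mitochondrial superoxide dismutase gene Sod2 at 1.16 and the cystine transporter gene Slc7a11 at 1.07, beside 10.5% of all 16676 measured genes. Lower were Gpx3 at -2.45, Gstm2 at -1.23 and Gstp1 at -1.11, beside 10.4%. Of these calls, Slc7a11 reversed to -0.60 with normexp background correction, Sod2 was at 0.96 with quantile normalization, and Gstp1 fell short of 2-fold with normexp and with the mean over its probes (-0.91). The median was 0.39, against 0.12 over all genes, with 19 of 32 above 0 beside 56.5% of all genes. At 1.5-fold, 14 of 32 genes (43.8%) lay above, beside 24.2% of all genes, and 3 below, beside 19.2%. Technical intervals lay wholly above 0 for 15 genes and wholly below for 4, beside 32.5% and 24.4% of all genes. The 3 comparisons share arrays, so their values are not independent of each other.

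**Figure D2:**
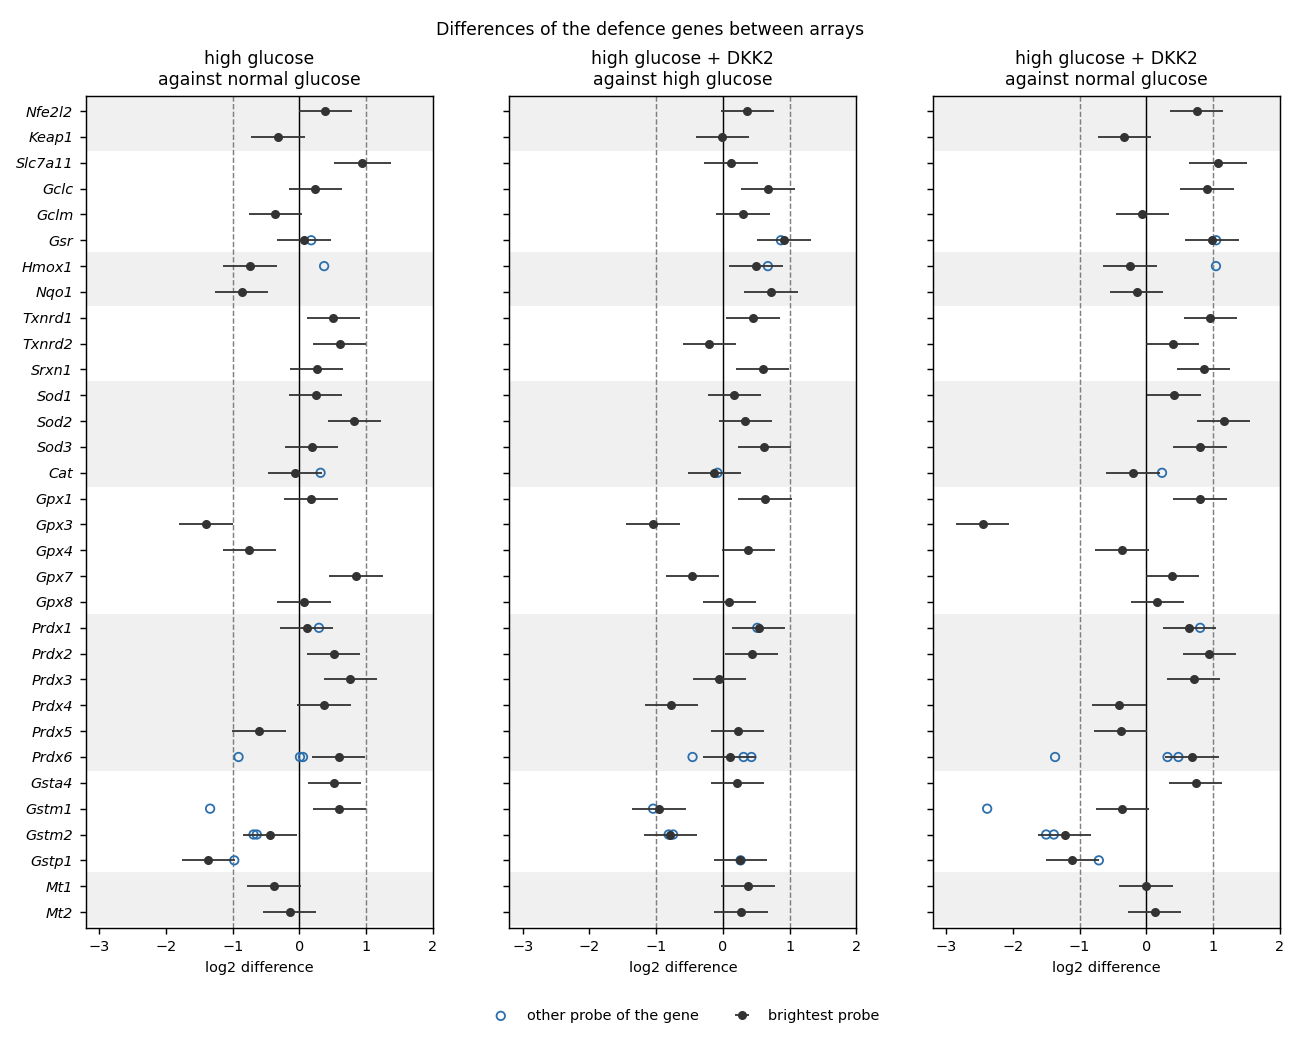
Log2 difference of each defence gene in the 3 comparisons, read on the brightest probe (filled points, bars are technical 95% intervals) and on the other probes of the gene (open points). Dashed lines mark 2-fold. Gpx3 lies at or beyond the lower line in all panels, and Gstm1, Hmox1 and Prdx6 have open points far from the filled one in the panels against normal glucose.

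**Figure D3:**
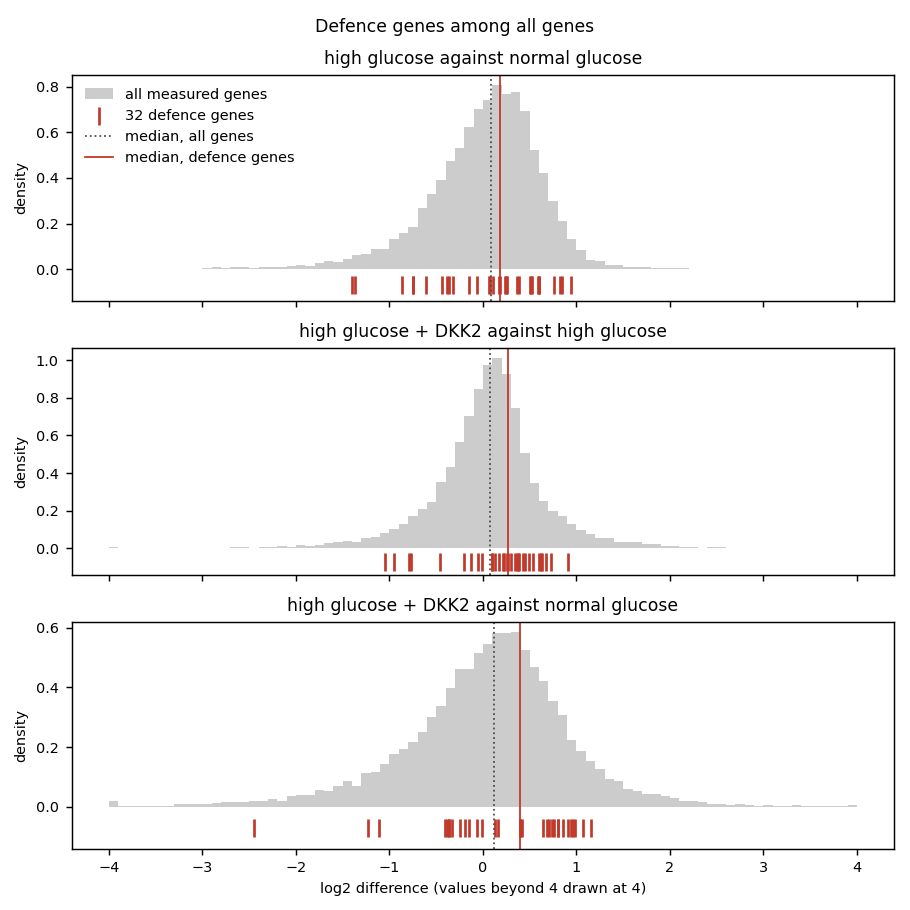
Histograms of the log2 difference of all measured genes in each comparison, with the 32 defence genes as ticks and both medians as lines. The median of the defence genes lies to the right of that of all genes in each panel, at 0.18 against 0.09 for glucose, 0.27 against 0.08 for DKK2 and 0.39 against 0.12 for DKK2 against normal glucose.

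The background depends on the correction for dim spots. With normexp background correction, 172 genes of the whole array were higher and 3931 lower in high glucose, in place of 448 and 960, and the median of all genes was -0.26. Against normal glucose, DKK2 then gave 938 higher and 4005 lower, in place of 1744 and 1727, with a median of -0.25. The medians of the defence genes were then 0.27 and 0.35 in those comparisons, in place of 0.18 and 0.39. Slc7a11 changed sign in both and is described with its group.

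The regulators come first. Nfe2l2 read 23.8 with DKK2, 18.5 in high glucose and 14.1 in normal glucose. The 3 arrays thus stood in steps of 0.37 and 0.39, each with a technical interval that holds 0, while the interval of the whole distance of 0.76 did not (0.36 to 1.16). Keap1, the repressor, read 4.15, 4.17 and 5.21 on the same arrays, a difference of -0.01 with DKK2 and -0.32 in high glucose. Both Keap1 intervals hold 0.

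Glutathione is made from cysteine, which Slc7a11 brings in as cystine, by glutamate-cysteine ligase, whose catalytic and modifier subunits are encoded by Gclc and Gclm; Gsr encodes the reductase that restores oxidised glutathione. Gsr read 3.57 with DKK2, 1.90 in high glucose and 1.81 in normal glucose, so the DKK2 array stood apart from a nearly equal pair. Its second probe gave the same picture, at 1.33, 0.729 and 0.645, and the DKK2 difference was 0.91 on the first probe and 0.87 on the second. Gclc read 12.3, 7.71 and 6.55 in the same order, again with the DKK2 array well above the others (0.68, interval 0.28 to 1.08). Gclm read 0.579, 0.469 and 0.603, lowest in high glucose, with both intervals holding 0. Slc7a11 had dim spots, with signals of 112.5, 101.4 and 26.6 before scaling. Its differences from normal glucose were 1.07 with DKK2 and 0.94 for high glucose alone, yet with normexp they were -0.60 and -0.68. Its direction against normal glucose is therefore not settled, while DKK2 and high glucose differed by 0.13.

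Hmox1 encodes haem oxygenase 1, which breaks down haem, and Nqo1 a quinone reductase; both are widely used as readouts of NRF2. Nqo1 read 2.94 with DKK2, 1.78 in high glucose and 3.25 in normal glucose. The high glucose array was the low one, by -0.87 against normal glucose, and the DKK2 array stood 0.72 above it (interval 0.32 to 1.12). Between DKK2 and normal glucose the difference was -0.15, with an interval that holds 0. Hmox1 on its brightest probe had the same shape, at 29.9, 21.2 and 35.5, or -0.74 in high glucose and 0.50 with DKK2. A second, dimmer Hmox1 probe read 1.88, 1.18 and 0.912, which is 0.37 in high glucose. The Hmox1 probes therefore disagree in sign for glucose and agree for DKK2, at 0.50 and 0.67. Both differences of Nqo1 and Hmox1 use the same high glucose array.

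Txnrd1 and Txnrd2 encode the cytosolic and mitochondrial thioredoxin reductases, and Srxn1 encodes sulfiredoxin, which repairs overoxidised peroxiredoxins. Srxn1 read 15 with DKK2, 9.94 in high glucose and 8.30 in normal glucose, with most of the distance between the first pair (0.60, interval 0.20 to 1.00). Txnrd1 read 8.52, 6.24 and 4.39, in steps of 0.45 and 0.51 that each had an interval just clear of 0. The mitochondrial Txnrd2 did not follow: it read 1.80, 2.07 and 1.37, so that its DKK2 difference was -0.21 and its glucose difference 0.60.

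The superoxide dismutases turn superoxide into hydrogen peroxide in the cytosol (Sod1), the mitochondrial matrix (Sod2) and outside the cell (Sod3), and catalase (Cat) splits the peroxide. Sod2 read 14.6 with DKK2, 11.5 in high glucose and 6.52 in normal glucose. Both high glucose arrays stood apart from the third one, by 1.16 and 0.82, and the DKK2 difference was 0.34, with an interval that holds 0. Sod3 had the opposite spacing, at 39.7, 25.8 and 22.7, with 0.62 between DKK2 and high glucose and 0.18 for glucose. Sod1 read 47.7, 42.3 and 35.8 and Cat 2.68, 2.93 and 3.07. For Sod1 and Cat, the intervals for DKK2 and for glucose hold 0.

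Glutathione peroxidases reduce peroxides, at the expense of glutathione for Gpx1 in cytosol and mitochondria and Gpx4 on membrane lipids. Gpx3 encodes a secreted plasma enzyme, and Gpx7 and Gpx8 encode family members of the endoplasmic reticulum. Gpx3 read 0.704 with DKK2, 1.46 in high glucose and 3.85 in normal glucose. It is the one defence gene that passed 2-fold in all 3 comparisons, each time downward, and it did so with each background correction, normalization and filter tried. It has a single probe, so no second reading exists. Gpx1 went the other way, at 75.4, 48.7 and 43.2, with the DKK2 array 0.63 above high glucose. Gpx4 had its low value in high glucose, at 38.4, 29.4 and 49.5 (-0.75 for glucose, 0.38 for DKK2). Gpx7 had its high value there, at 1.09, 1.5 and 0.833 (0.85 and -0.46). Gpx8 read 19.0, 17.8 and 16.9, with all intervals holding 0.

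Peroxiredoxins reduce peroxides through a reactive cysteine; Prdx3 works in mitochondria, Prdx4 in the endoplasmic reticulum. The Prdx3 probe was printed 10 times on each array, and after outlier spots were left out its spots ranged over 3.22 to 3.68 with DKK2 (9 spots), 3.41 to 3.78 in high glucose (8 spots) and 2.02 to 2.19 in normal glucose (9 spots). Spots of the 2 high glucose arrays overlap, and those of normal glucose lie wholly below both. The difference for glucose was 0.76 and that for DKK2 -0.05. Prdx4 read 8.36, 14.3 and 11.1, the lowest with DKK2 (-0.77, interval -1.17 to -0.37). Prdx1 read 67.5, 46.5 and 43.1, and its second probe 2.54, 1.78 and 1.45, which puts the DKK2 difference at 0.54 and 0.52. Prdx2 read 24.2, 18.0 and 12.6, in steps of 0.43 and 0.51. Prdx5 was highest in normal glucose, at 15.6, 13.4 and 20.4 (-0.61 for glucose). Prdx6 read 25.3, 23.6 and 15.7 on its brightest probe. Its 4 probes disagreed for glucose: the brightest gave 0.59, a pair gave 0.05 and 0.01, and a very dim one gave -0.91.

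Glutathione transferases attach glutathione to electrophiles and lipid peroxidation products, and Gsta4 favours the second kind. Gsta4, printed 10 times per array, had spots between 1.17 and 1.32 with DKK2, 1.01 and 1.11 in high glucose and 0.70 and 0.773 in normal glucose. These ranges show the printing error within an array only: although they do not overlap, the interval of the DKK2 difference of 0.22 holds 0 (-0.18 to 0.62), while that of the glucose difference of 0.52 does not. The mu-class genes Gstm1 and Gstm2 had negative DKK2 differences, short of 2-fold on their brightest probes. Gstm2 read 11.4 with DKK2, 19.7 in high glucose and 26.7 in normal glucose, and its 3 probes gave -0.79, -0.81 and -0.75 for DKK2. Gstm1 stood low with DKK2, at 18.6 against 36.1 in high glucose on the brightest probe (-0.96) and at 5.12 against 10.6 on the other (-1.05). In the glucose comparison the 2 Gstm1 probes contradicted each other, at 0.60 and -1.34, with normal glucose readings of 23.9 and 26.8. Gstp1, the pi-class enzyme, read 9.96, 8.32 and 21.4 and was lower in high glucose on its brightest probe. The second Gstp1 probe gave -0.98 for glucose and -0.71 for DKK2 against normal glucose, where the first gave -1.37 and -1.11. The mu-class genes are close relatives and probe sequences were not analysed here, so cross-hybridisation between them was not tested.

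**Figure D4:**
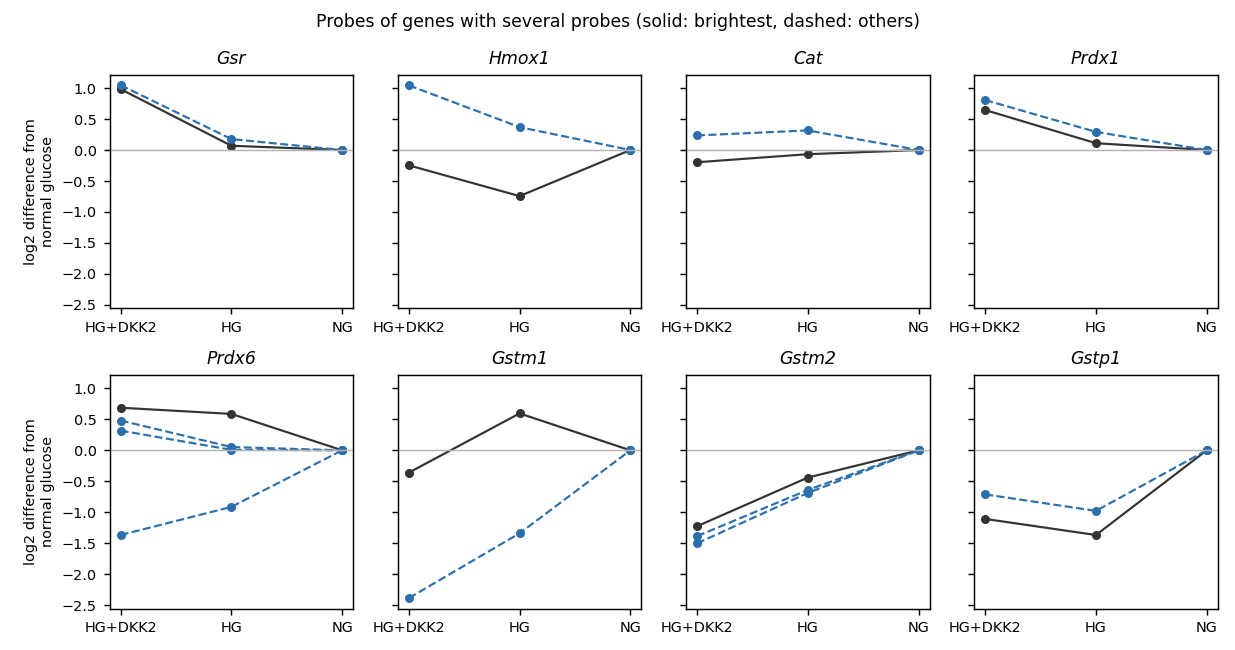
Log2 difference from normal glucose on the DKK2, high glucose and normal glucose arrays for the 8 defence genes with several probes (solid line, brightest probe; dashed lines, others). Lines run close together for Gsr, Prdx1, Gstm2 and Gstp1, and separate for Hmox1, Prdx6 and Gstm1 between high and normal glucose.

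Over the 8 defence genes with several probes, the probes lay on both sides of 0 for 4 genes in the glucose comparison (Cat, Gstm1, Hmox1 and Prdx6), beside 44.3% of 4319 genes with several measured probes. In the DKK2 comparison this was so for 1 gene, Prdx6, beside 30.5% of 4623 genes.

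Mt1 and Mt2 are neighbouring genes of cysteine-rich metal-binding proteins. Mt1 read 82.3 with DKK2, 63.5 in high glucose and 82.7 in normal glucose, and Mt2 read 58.5, 48.5 and 53.6. High glucose was the lowest array for both, but the intervals of all these differences hold 0 (-0.38 and -0.15 for glucose, 0.37 and 0.27 for DKK2).

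Because these genes share known promoter elements, the promoters of the 26 members with an entry in the RefSeq promoter table (GRCm38.p6) were searched, in windows from 250 bases before to 50 bases after the gene's start. Gclc, Gsr, Hmox1, Sod3, Prdx6 and Gsta4 have no entry. The antioxidant response element core was searched as TGACNNNGC on both strands (GCNNNGTCA on the opposite one). It was found in 7 of 26 members and in 14% of all 27025 genes of the table. A gene with several starts counted if any of its windows matched, and Txnrd1 matched in some of its windows and not in others. Which start the cells used was not tested. The 7 matches are shown to let the core and its neighbourhood be compared; each line is 5′ to 3′ on the gene's strand, and capitals mark the core.
Nfe2l2 (chr2:75704880-75704913, minus strand): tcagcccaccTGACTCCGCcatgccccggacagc
Srxn1 (chr2:152105537-152105573, plus strand): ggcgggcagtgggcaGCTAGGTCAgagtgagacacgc
Gclm (chr3:122245408-122245446, plus strand): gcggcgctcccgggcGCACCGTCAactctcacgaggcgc
Prdx1 (chr4:116685451-116685489, plus strand): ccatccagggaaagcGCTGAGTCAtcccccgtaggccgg
Mt2 (chr8:94172524-94172562, plus strand): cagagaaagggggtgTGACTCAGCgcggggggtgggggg
Txnrd1 (chr10:82859099-82859137, plus strand): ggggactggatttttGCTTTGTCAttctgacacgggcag
Sod1 (chr16:90220691-90220729, plus strand): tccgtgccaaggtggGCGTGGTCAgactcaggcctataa

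The cores of Prdx1 and Mt2 also hold TGACTCA on one strand, the letters of an AP-1 site, and the Gclm core overlaps a metal response element match. With DKK2, the 7 genes with a match differed from high glucose by 0.17 to 0.60, with 7 of 7 above 0 and a median of 0.37. Among them, the technical intervals of Nfe2l2, Gclm, Sod1 and Mt2 hold 0. The 19 members with a window and no match spanned -1.05 to 0.72, with 10 of 19 above 0 and a median of 0.09. The 6 members without an entry enter neither group, and all 6 were above 0 (0.10 to 0.91), though Prdx6 was at -0.06 with quantile normalization. Over all genes, 59.7% of those with a match and 57.9% of those without lay above 0, with medians of 0.09 and 0.08. For high against normal glucose, 5 of 7 members with a match and 10 of 19 without were above 0. Over all genes these shares were 58.2% and 56.6%. For DKK2 against normal glucose they were 6 of 7 and 8 of 19 members, beside 58.0% and 57.1% of all genes. The difference between the groups was not tested. A match here is a run of letters and was not tested for binding, and the windows leave out more distant elements.

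The metallothionein promoters carry metal response elements, searched as TGCACNC and TGCGCNC on both strands. Mt2 had 4 matches, Mt1 had 3 and Gclm also had 3, while 1.97% of all windows had 3 or more. At least 1 match was found in 8 of 26 members, close to the 28.2% of all genes. With DKK2, 4 of 8 members with a match and 13 of 18 without one were above 0. Over all genes, 56.6% of those with a match and 59.0% of those without were above 0. The Mt1 and Mt2 stretches are printed because they show the core repeated within 1 promoter, and capitals mark the matches.
Mt1 (chr8:94179051-94179130, plus strand): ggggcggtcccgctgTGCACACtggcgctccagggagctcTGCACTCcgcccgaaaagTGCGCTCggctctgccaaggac
Mt2 (chr8:94172380-94172643, plus strand): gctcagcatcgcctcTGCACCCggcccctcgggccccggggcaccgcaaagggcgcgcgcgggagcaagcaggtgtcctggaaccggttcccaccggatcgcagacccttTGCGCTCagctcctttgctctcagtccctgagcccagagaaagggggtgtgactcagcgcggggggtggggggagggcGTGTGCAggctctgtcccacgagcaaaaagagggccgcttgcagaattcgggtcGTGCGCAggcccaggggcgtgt

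A second list held 67 further genes of the same pathways, all measured on every array. In high glucose 2 were higher and 6 lower (background 2.67% and 5.73%), and the median difference was -0.01. With DKK2 5 were higher and 3 lower than in high glucose (background 5.08% and 4.85%), with a median of 0.14 and 44 of 67 (65.7%) above 0, beside 57.6% of all genes. Against normal glucose the DKK2 array had 9 higher and 7 lower (background 10.5% and 10.4%), with a median of 0.06. For DKK2 against high glucose the median of the further genes thus lay between that of all genes (0.08) and that of the 32 defence genes (0.27), and the difference between the lists was not tested.

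Among these further genes, Chac1, whose enzyme degrades glutathione, read 3.26 with DKK2 against 0.935 in high glucose (1.80). Taldo1, of the pentose phosphate pathway that supplies NADPH, read 42.7 against 19.2 (1.16), and the omega-class transferase gene Gsto1 85.1 against 38.6 (1.14). The microsomal transferase gene Mgst3 read 5.71 with DKK2, 2.71 in high glucose and 0.604 in normal glucose, highest with DKK2. Idh1, a cytosolic source of NADPH, read 1.28, 0.938 and 0.191, so most of its distance lay between the glucose levels (2.29). Gstm3, another mu-class gene, had the pattern of Gstm2, at 1.76, 3.84 and 5.87, and was lower with DKK2 by a difference of -1.13. Txnrd3, a thioredoxin reductase gene, was lower too, at 0.499 against 1.1 (-1.14).

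Lower in high glucose were Msrb3, which repairs oxidised methionine (-1.57), Mafk, a small Maf partner of NRF2 (-1.15), the glutaredoxin gene Glrx (-1.15) and the constitutive haem oxygenase gene Hmox2 (-1.09). Between DKK2 and normal glucose, the alpha-class transferase gene Gsta3 was higher by 1.90, while Osgin1 and the iron exporter gene Slc40a1 were lower, at -1.75 and -1.56. Transferase genes therefore lay on both sides: Gsto1, Gsta3 and Mgst3 read highest with DKK2, while Gstm2 and Gstm3 read lowest with it.

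Markers of other cells moved in the same comparison, read against a background of 5.08% higher and 4.85% lower over all genes. With DKK2, 8 of 13 measured macrophage markers were higher and 0 lower than in high glucose (median 1.46), and 9 of 13 were higher than in normal glucose (median 2.27, background 10.5%). Several were dim in normal glucose, with signals before scaling of 28.3 for Fcgr3, 37.3 for Aif1 and 45.5 for C1qa. Cd14, Csf1r and Tyrobp were brighter there, at 1038, 1270 and 451. Their DKK2 differences from high glucose were 2.03, 0.97 and 1.74, though the other probes of Csf1r did not keep its sign. The marker lists were not read with normexp, which limits all their differences from normal glucose. Cd163 was not well above background on any array. A summed scaled signal over a list is set mostly by its brightest gene. For macrophages it was 26.3 with DKK2, 19.3 in high glucose and 27.4 in normal glucose, but 10.2, 3.62 and 2.92 without Itgam, whose other probes did not keep its sign. Of 10 adipocyte markers 6 were lower (median -1.48), with sums of 10.2, 27.3 and 20.0. Of 10 fibroblast markers 3 were lower (median -0.58), with sums of 358.6, 491.2 and 527.5, and of 8 smooth muscle and pericyte markers 1 was lower (median -0.51), with sums of 28.6, 49.8 and 82.7. Of 14 measured endothelial markers 5 were lower and 0 higher (median -0.32), with sums of 6.96, 6.60 and 5.99, but 2.45, 2.77 and 2.95 without the brightest, Kdr. The sums without Kdr are set largely by Eng, at 1.30, 1.13 and 2.04. Of 8 measured skeletal muscle markers 4 were lower (median -0.96), with sums of 0.585, 1.61 and 2.05. For DKK2 against high glucose, the macrophage list was the only marker list with a median above 0. Of the 32 defence genes, 23 lay above 0 and 9 below there. In high glucose against normal glucose the macrophage, adipocyte and endothelial medians were 0.66, 0.57 and 0.47. The smooth muscle and pericyte, fibroblast and skeletal muscle medians were 0.09, -0.09 and -0.36. There 12 of 13 measured endothelial markers were above 0, with 4 higher and 0 lower (background 2.67% and 5.73%). These 4 were Nos3, Icam2, Cldn5 and Robo4, with signals before scaling of 97.4, 39.6, 29.8 and 55.2 in normal glucose. Of adipocyte markers 3 of 10 were higher, and of macrophage markers 2 of 13, with 0 lower in either list. Lower were 1 of 8 smooth muscle and pericyte and 1 of 8 skeletal muscle markers. The part of cell makeup in these values was not tested.

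**Figure D5:**
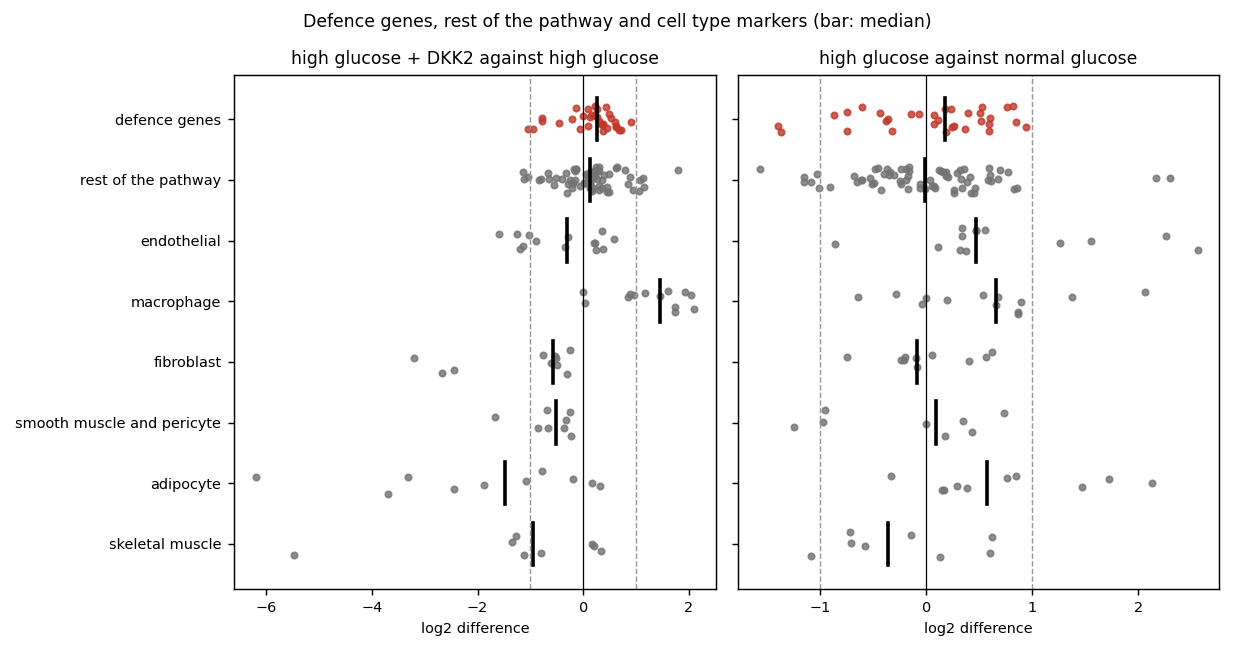
Log2 differences of the measured genes of each list (points) with the list median (bar), for DKK2 in high glucose against high glucose (left) and high glucose against normal glucose (right). Dashed lines mark 2-fold. The defence genes lie between -1.05 and 0.91 on the left, while macrophage markers have a median of 1.46 and adipocyte markers one of -1.48.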

How the data were processed

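RNA of 3 pooled samples per condition was hybridised to 1 Agilent one-colour (Cy3) array each, per the labels. Per the file headers, Feature Extraction 11.5.1.1 read the arrays, whose design is annotated on mm9. The authors deposited scanner files with a background-corrected processed signal intensity per spot, and a table of intensity values; 99.7% or more of its 39429 probes lie within a fraction of 0.001 of the spot average of that signal, so it is linear, neither scaled nor centred (column medians 204.6 for DKK2, 196.2 for high glucose, 101.8 for normal glucose). Groups came from the sample titles.

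From these, control and outlier spots were left out, spots of a probe averaged on the log2 scale, and each array's 75th percentile subtracted. A probe was well above background if 50% or more of its spots had the scanner's flag. Of the probes, 27508 matched 1 symbol in a RefSeq table (GRCm38.p6, used for names and promoters only) and 11921 matched none. A gene was read on its brightest probe. All 32 defence genes are named; of other pathway genes, at most 8 per comparison that were 2-fold in the main and normexp settings with probes on 1 side. The members and lists were chosen with earlier results of these data known. With 1 array per condition no test was run. The counting code was run on simulated data, with planted differences past 2-fold and noise smaller than the technical error. That run checks the code only and says nothing about the differences reported here. Tools were R 4.3.3, limma 3.58.1, Python 3.11.15, numpy 2.4.6 and pandas 2.3.3.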

Additional observations from a re-analysis of the deposited data

How the results depend on the processing

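Alternatives were normexp (offset 50, on the median signal and local background), quantile normalization, median scaling, keeping dim probes, asking for a signal of 100 or more on every array (the stricter filter), averaging a gene's probes, starting from the deposited table, and setting the size rule to 1.5-fold or 3-fold. The medians of the 32 defence genes moved by less than 0.20 under the corrections, normalizations, filters, probe averaging and deposited table. That is the technical SD of a single gene's difference and is larger than the glucose median itself, so it does not show a median to be stable. For glucose the median was 0.15 with quantile normalization and 0.27 with normexp, in place of 0.18. For DKK2 against high glucose and against normal glucose, quantile normalization gave 0.17 and 0.30, in place of 0.27 and 0.39. For high against normal glucose, 1.5-fold gave 7 higher and 6 lower and 3-fold gave 0 lower, in place of 0 and 2. For DKK2 against high glucose, quantile normalization and the mean over probes gave 2 lower, Gpx3 and Gstm1, in place of 1; 1.5-fold gave 6 higher and 4 lower, and 3-fold gave 0 lower. For DKK2 against normal glucose, the 2 higher genes became 5 with normexp (Gsr, Txnrd1, Srxn1, Sod2 and Prdx2), 1 with quantile normalization (Slc7a11), 1 with the stricter filter (Sod2), 14 at 1.5-fold and 0 at 3-fold, where 1 gene was lower. Gstp1 there fell short of 2-fold with normexp and the mean over probes, and Gstm1 was lower with the mean over probes. Slc7a11 there reversed to -0.60 with normexp, where the offset of 50 was added before scaling. Its processed signal in normal glucose was 26.6. The cause of the reversal was not tested. Against normal glucose, Prdx6, Gstm1, Hmox1 and Cat changed sign in 1 comparison or more with the mean over probes. Over all genes, normexp also gave 505 higher and 478 lower with DKK2 against high glucose, in place of 905 and 865; no filter on dim probes gave 1103 higher and 2128 lower for glucose, and 1307 and 1350 for DKK2 against high glucose, and 2674 and 2346 for DKK2 against normal glucose. The stricter filter gave 219 and 582, 394 and 492, and 1059 and 1138 in the 3 comparisons in the order above. Quantile normalization, median scaling, the mean over probes and the deposited table moved no count over all genes by 1.5 times. The mean over the other probes of a gene was added after seeing the data and covers the 8 genes with several probes. Their medians were then -0.05 for glucose, 0.18 for DKK2 against high glucose and 0.02 for DKK2 against normal glucose. Gstm1 was then lower in all 3 comparisons, and against normal glucose DKK2 had Gsr and Hmox1 higher and Gstm2 lower too. No paired analysis was possible because each condition has 1 array. No array could be left out, for the same reason.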
